A study of Mus musculus with 4 samples.

Results

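The genes described here are 10 genes of acute inflammation: the serum amyloid A genes Saa1, Saa2 and Saa3, the cytokine genes Il1b, Il6 and Il33, the chemokine genes Ccl2, Cxcl5 and Cxcl13, and the prostaglandin enzyme gene Ptgs2. They were picked by name with earlier results of these arrays in view, so their values are a description and carry no p-value. A gene was read through every non-control probe whose RefSeq accession belongs to it, and the probe with the highest mean log2 signal over the 4 arrays stood for the gene. All 10 were found, through 13 of the 56605 probes, among 22911 genes that could be named. RNA came from mouse tissue labelled PDL, short for periodontal ligament, the connective tissue between tooth root and bony socket. Mkx-KO mice are labelled as knockouts of Mkx, which encodes Mohawk, a homeobox protein that regulates genes of tendons and ligaments, and WT mice are wild type. The groups were Mkx-KO at 10 weeks of age, WT at 10 weeks, Mkx-KO at 4 weeks and WT at 4 weeks, with 1 array each. The strain, the knockout allele, the sex and the number of mice in a preparation were not given in the sources used here, and a group of 1 array has no biological replicate.

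Acute phase proteins are secreted in large amounts when tissue is injured or infected, and serum amyloid A is the acute phase protein whose level in mouse blood climbs most steeply. Saa1 and Saa2 are made mainly by the liver, whereas mouse Saa3 is made largely outside it, by macrophages, fat cells and epithelia. Interleukin 1 beta and interleukin 6 switch such genes on, through the transcription factors NF-kappaB, C/EBP and STAT3. Chemokines then draw leukocytes in: CCL2 attracts monocytes, CXCL5 attracts neutrophils and CXCL13 attracts B cells. Prostaglandin E2, whose synthesis depends on the enzyme encoded by Ptgs2, acts on bone resorption and is well known in the inflamed periodontal ligament.

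The scanner software called 61.8% to 66.6% of spots well above background on the 4 arrays, and no spot was saturated. Of 7 ligament and tendon markers with a probe, including Postn, Aspn and Scx, all were well above background on every array. Mkx itself read a processed signal of 108 in Mkx-KO and 553 in WT at 10 weeks, and 193 in Mkx-KO and 563 in WT at 4 weeks. The Mkx signal was thus lower in Mkx-KO but still well above background on both Mkx-KO arrays, and whether the probe lies in the deleted part is not given in the sources used here. Markers of other tissues were also present: all 8 epithelial markers and all 11 neutrophil markers with a probe were well above background on every array, as were 8 of 8 olfactory and nasal markers on 3 arrays and 6 of 8 on the Mkx-KO array of 4 weeks. Signals below are processed spot intensities as read. Levels are log2 signals minus the array's 75th percentile, and every difference is between levels, Mkx-KO minus WT or 10 minus 4 weeks. Each difference has a technical error that combines the scanner software's errors for both spots, from 0.20 to 0.38 log2 units for the genotype differences of these genes where both spots were well above background. It does not cover variation between mice.

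The 250 bases upstream of the transcription start are shown here for the 3 serum amyloid genes, which sit in 1 cluster on chromosome 7. On the arrays Saa3 stood apart from Saa1 and Saa2. The sequences are from RefSeq's GRCm38.p6 mouse assembly, written 5′ to 3′, and capitals mark matches to TTGCNNAA, a motif of C/EBP factors, on either strand.
Saa1 (chr7:46742981-46743230, minus strand): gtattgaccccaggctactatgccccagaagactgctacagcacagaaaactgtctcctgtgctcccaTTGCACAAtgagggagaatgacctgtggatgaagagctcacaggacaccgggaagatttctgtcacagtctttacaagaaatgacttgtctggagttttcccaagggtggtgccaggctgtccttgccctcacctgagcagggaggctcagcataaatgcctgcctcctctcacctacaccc
Saa2 (chr7:46751583-46751832, plus strand): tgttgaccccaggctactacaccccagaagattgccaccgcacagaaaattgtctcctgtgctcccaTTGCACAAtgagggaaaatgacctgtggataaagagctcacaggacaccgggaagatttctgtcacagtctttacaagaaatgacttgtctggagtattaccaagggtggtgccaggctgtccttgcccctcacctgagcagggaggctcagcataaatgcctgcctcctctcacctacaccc
Saa3 (chr7:46715677-46715926, minus strand): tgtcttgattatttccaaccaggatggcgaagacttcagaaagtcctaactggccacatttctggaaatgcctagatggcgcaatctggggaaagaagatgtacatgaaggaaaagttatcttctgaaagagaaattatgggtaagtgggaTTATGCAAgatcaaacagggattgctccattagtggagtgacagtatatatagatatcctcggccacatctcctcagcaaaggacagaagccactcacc
Aligned end to end, the Saa1 and Saa2 windows were identical in 238 of 251 columns (94.8%), while Saa3 matched Saa1 in 48.5% and Saa2 in 47.8% of columns. Each window held 1 C/EBP match, 182 to 175 bases before the start in Saa1, 183 to 176 in Saa2 and 99 to 92 in Saa3. Among 32851 promoter windows of this length in the table, 9.56% held this motif. The NF-kappaB consensus, present in 7.25% of windows, and the AP-1 motif TGANTCA, present in 6.75%, had no match in these 3 windows. Of the 10 genes, 8 had a window in the table, and Il6 was the one with a match to all 3 motifs; its NF-kappaB match lay 44 to 35 bases before the start. A match is a string of letters and not a measured binding site.

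Saa3 differed more than any other of these genes, and in opposite directions at the ages compared. Its probe (A_66_P106131) read 100.5 in Mkx-KO and 363 in WT at 10 weeks, and 2566 in Mkx-KO and 33.2 in WT at 4 weeks. The Mkx-KO array of 4 weeks was the highest and the WT array of 4 weeks the lowest, with both arrays of 10 weeks between them. On the level scale the difference was 6.17 at 4 weeks with a technical error of 0.24, which is 71.8-fold, and -1.60 at 10 weeks with an error of 0.21, or 33.0% of WT. The 4 levels, 3.16 in Mkx-KO at 4 weeks, 0.23 in WT at 10 weeks, -1.37 in Mkx-KO at 10 weeks and -3.004 in WT at 4 weeks, each lay more than 2 technical errors from the next. The difference of the differences, 10 weeks minus 4 weeks, was -7.77 with a technical error of 0.31, and 1 array a group leaves no way to test it.

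The unscaled pixel data of the Saa3 spot showed the same order. Its median pixel intensity was 128 in Mkx-KO and 379 in WT at 10 weeks, and 2350 in Mkx-KO and 70.0 in WT at 4 weeks, against a local background of 30.5 to 34.0. The 83 neighbouring spots well above background on both arrays of 4 weeks had a median difference of 0.01, so the area around the spot was not brighter in Mkx-KO. With normexp background correction of the median pixel signal, the difference was 4.53 at 4 weeks and -1.21 at 10 weeks. Saa3 has 1 probe here, so no other probe bears on it.

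**Figure D1:**
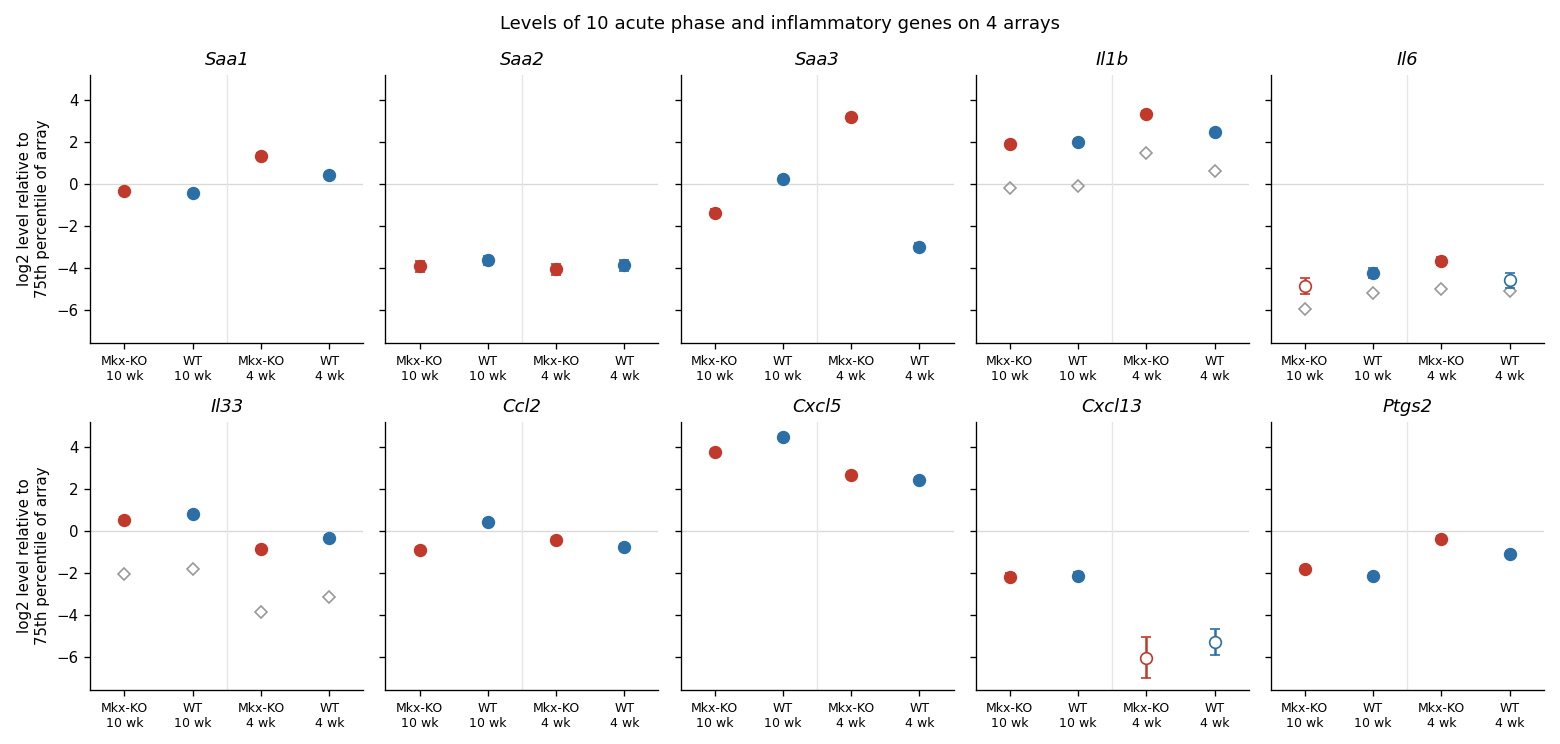
Level (log2 signal minus the 75th percentile on the log2 scale, y axis) of each gene on the 4 arrays (x axis), Mkx-KO in red and WT in blue; bars are technical errors, open circles were not well above background, and grey diamonds are a gene's second probe. Saa3 stands at 3.16 in Mkx-KO of 4 weeks and at -3.004 in WT of 4 weeks, and Cxcl13 is well above background at 10 weeks only.

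Saa1 went the same way as Saa3 at 4 weeks, by much less. Its probe read 204 in Mkx-KO and 231 in WT at 10 weeks, and 727 in Mkx-KO and 360 in WT at 4 weeks. The difference was 0.91 at 4 weeks with an error of 0.20, or 1.88-fold, and 0.07 at 10 weeks. Both arrays of 10 weeks lay below both of 4 weeks, and the 10-week levels differed by less than their technical error. Saa2 read 17.1 in Mkx-KO and 24.8 in WT at 10 weeks, and 17.1 in Mkx-KO and 18.1 in WT at 4 weeks, close above the lowest signal called well above background on any array, 10.0. Its differences of -0.28 and -0.19 were within 1 technical error. Saa1 and Saa2 are near-identical copies and the probe sequences were not used here, so which copy each probe reads is uncertain.

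Of 9 hepatocyte markers, 5 (Apoa2, Serpina1a, Serpina1c, Tat and Ahsg) were well above background on all 4 arrays, and Ttr was in Mkx-KO of 4 weeks alone. Alb, Apoa1 and F2 were not well above background on any array, with signals of 2.25 to 4.18. The summed signal of the list, in units of the 75th percentile, was 4.77 in Mkx-KO and 4.69 in WT at 10 weeks, and 4.45 in Mkx-KO and 5.19 in WT at 4 weeks. Most of this sum came from Apoa2 alone, which read 894 to 1121 over the arrays. The part of liver-type RNA in the Saa1 and Saa2 values was not tested. Saa4, the constitutive serum amyloid gene of the same cluster, was not well above background on any array either.

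Il1b, the gene of interleukin 1 beta, was also higher in Mkx-KO at 4 weeks. Its brighter probe read 981 in Mkx-KO and 1226 in WT at 10 weeks, and 2856 in Mkx-KO and 1481 in WT at 4 weeks. The difference was 0.84 at 4 weeks with an error of 0.20, or 1.79-fold, and -0.07 at 10 weeks. The dimmer probe gave 0.84 and -0.11. Il6, the gene of interleukin 6, was near the detection limit. Its brighter probe was well above background in Mkx-KO at 4 weeks, at a signal of 22.5, and in WT at 10 weeks, at 16.4, but not in WT at 4 weeks or Mkx-KO at 10 weeks. Such a pair of arrays gives a bound, the bright level against the higher of the dim spot's own level and the lowest signal called well above background on its array. The bound leaves technical error out. By this bound Il6 was at least 1.81-fold higher in Mkx-KO of 4 weeks, with a measured difference of 0.93 and a technical error of 0.41. With technical error alone, the 95% range of that difference was 0.12 to 1.74. At 10 weeks the measured difference of -0.64 was under 2 technical errors of 0.46, so no direction is given. Its other probe was not well above background on any array.

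Il33, which encodes an alarmin released by damaged stromal and epithelial cells, was on the lower side in Mkx-KO. The brighter probe read 364 in Mkx-KO and 540 in WT at 10 weeks, and 154 in Mkx-KO and 209 in WT at 4 weeks. The differences were -0.32 and -0.54, the second more than 2 technical errors from 0, and the dimmer probe gave -0.24 and -0.71. Il33 and Saa2 were the only 2 of the 8 genes measured on all arrays that had a negative difference at both ages. With normexp background correction Saa2 differed by 0.13 at 10 weeks, which leaves Il33.

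Ptgs2, which encodes cyclooxygenase 2, read 73.8 in Mkx-KO and 69.3 in WT at 10 weeks, and 218 in Mkx-KO and 123 in WT at 4 weeks. It was higher in Mkx-KO by 0.72 at 4 weeks, or 1.65-fold, with an error of 0.21, and by 0.34 at 10 weeks, which is under 2 technical errors. Ccl2, the monocyte chemokine gene, read 138 in Mkx-KO and 407 in WT at 10 weeks, and 211 in Mkx-KO and 157 in WT at 4 weeks. Its WT level at 10 weeks stood above the other 3 arrays, which lay close together. The difference was -1.31 at 10 weeks with an error of 0.21, or 40.3% of WT, and 0.33 at 4 weeks.

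Cxcl5, the neutrophil chemokine gene, was brightest in WT of 10 weeks. Its probe read 3450 in Mkx-KO and 6846 in WT at 10 weeks, and 1799 in Mkx-KO and 1432 in WT at 4 weeks. The difference was -0.74 at 10 weeks, or 60.0% of WT, and 0.22 at 4 weeks, the second close to its technical error of 0.20. Cxcl13, the B cell chemokine gene, read 56.8 in Mkx-KO and 69.7 in WT at 10 weeks, a difference of -0.04. At 4 weeks its signals of 4.32 in Mkx-KO and 6.74 in WT were not well above background.

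In counts, none of the 9 genes measured on both arrays of 10 weeks was higher in Mkx-KO by 2-fold or more, where 1.04% of all 16457 measured genes were, and 2 (Saa3 and Ccl2) were at least 2-fold lower, where 1.37% of all genes were. At 4 weeks 1 of 8 (Saa3) was higher by that much, against 0.472% of 15686 genes, and none was lower, against 3.31%. These genes were chosen with such differences known, so their counts stand beside the shares without a reading. By sign, 2 of 9 were positive at 10 weeks, beside 51.5% of all genes, with a median of -0.28 against 0.01 for all genes. At 4 weeks 6 of 8 were positive, beside 58.8% of all genes, with a median of 0.52 against 0.06. The differences of Saa1, Saa2, Il1b and Cxcl13 at 10 weeks and of Saa2 at 4 weeks were within 1 technical error, so their signs are not settled. Among all measured genes, Saa3 had the highest difference at 4 weeks, Saa1 ranked 104 from the top, Il1b 140 and Ptgs2 236. By size alone, 0.0765% of genes differed by more than Saa3 at 4 weeks, all of them lower in Mkx-KO. At 10 weeks Saa3 ranked 46 from the bottom, Ccl2 85 and Cxcl5 478 of 16457.

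**Figure D2:**
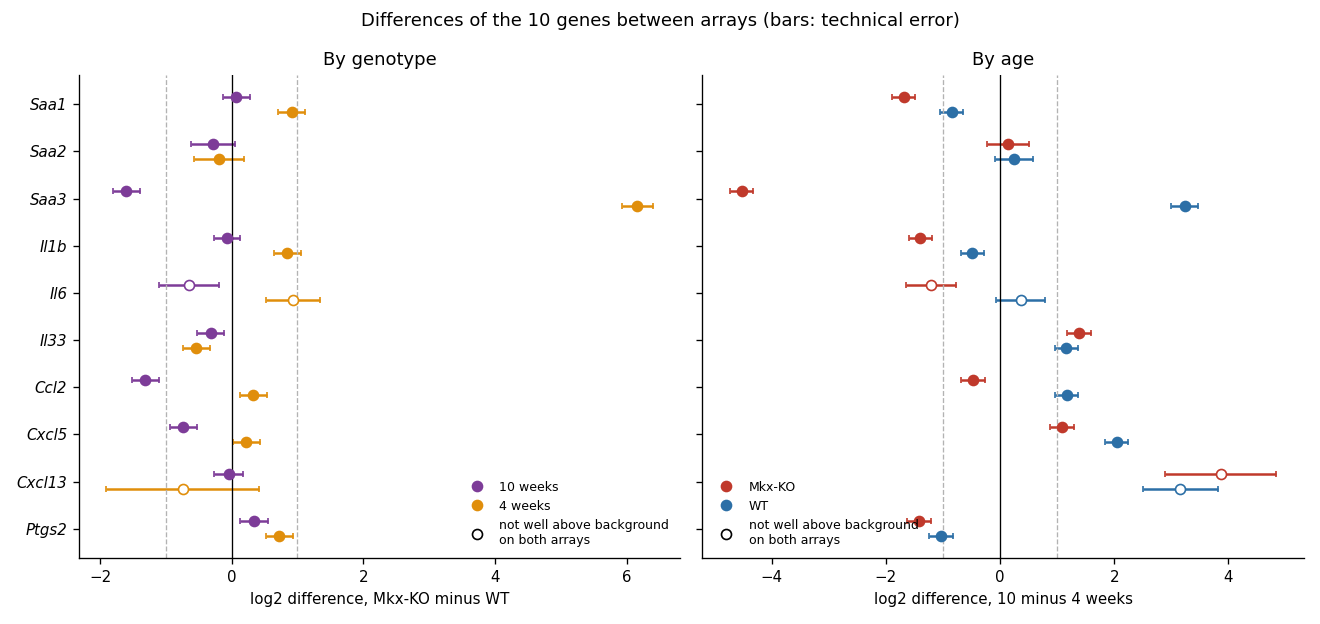
Log2 differences (x axis) of the 10 genes (y axis) by genotype (left, 10 and 4 weeks) and by age (right, Mkx-KO and WT); bars are technical errors, open circles were not well above background on both arrays, and dashed lines mark 2-fold. Saa3 lies at 6.17 for genotype at 4 weeks, and in the right panel its differences of -4.53 in Mkx-KO and 3.24 in WT lie on opposite sides of 0.

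**Figure D3:**
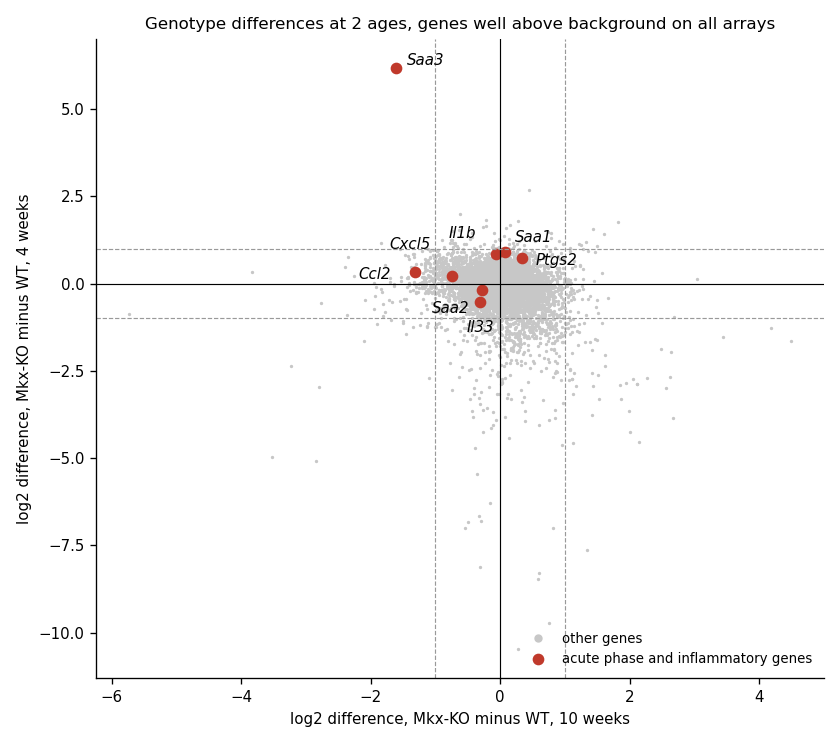
Log2 difference of Mkx-KO minus WT at 10 weeks (x axis) against that at 4 weeks (y axis) for genes measured on every array; the axes share no array. The 8 genes described that belong to these are in red; Saa3 stands at -1.60 and 6.17, above every other gene on the y axis.

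By age, some genes were higher and some lower at 10 weeks in both genotypes, and others were neither. Saa2 differed by 0.14 in Mkx-KO and 0.24 in WT, both within 1 technical error. Il33, Cxcl5 and Cxcl13 were higher at 10 than at 4 weeks in both genotypes. Il33 differed by 1.38 in Mkx-KO and 1.16 in WT, and its dimmer probe by 1.79 and 1.32. Cxcl5 differed by 1.08 in Mkx-KO and 2.04 in WT. By its bound, which leaves technical error out, Cxcl13 was at least 5.60-fold higher at 10 weeks in Mkx-KO and at least 5.22-fold in WT. The 95% ranges of its log2 differences were 1.94 to 5.78 in Mkx-KO and 1.87 to 4.45 in WT.

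Saa1, Il1b and Ptgs2 were lower at 10 than at 4 weeks in both genotypes. Saa1 differed by -1.69 in Mkx-KO and -0.85 in WT, Il1b by -1.40 and -0.48 in the same order, and Ptgs2 by -1.42 in Mkx-KO and -1.04 in WT. For each of these 3 genes the age difference was the wider one in Mkx-KO, which uses the same 4 levels as the genotype differences above and adds no evidence of its own. By its bound, Il6 was at least 2.03-fold lower at 10 weeks in Mkx-KO, with a technical error of 0.44. The 95% range of that log2 difference was -2.07 to -0.35. In WT Il6 differed by 0.36, within its technical error of 0.43. Saa3 and Ccl2 went opposite ways by genotype: Saa3 differed by -4.53 in Mkx-KO and 3.24 in WT, and Ccl2 by -0.47 in Mkx-KO and 1.17 in WT. With the authors' deposited scaling, Il1b in WT differed by -0.13 and Ccl2 in Mkx-KO by -0.18.

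In Mkx-KO 2 of 8 measured genes were at least 2-fold higher at 10 weeks, beside 6.25% of all 15669 genes, and 4 were at least 2-fold lower, beside 3.84%. In WT 4 of 8 were higher, beside 5.01% of 16102 genes, and 1 was lower, beside 3.83%. The scaling matters for these shares: of all genes at least 2-fold apart by age, 62.0% were higher at 10 weeks in Mkx-KO and 56.6% in WT, against 85.4% and 82.9% with the authors' deposited scaling. That scaling moved the median of all genes by 0.29 in Mkx-KO and 0.36 in WT. After it the same members were called in Mkx-KO, and in WT all but Ptgs2, which differed by -0.68. Beside these age values, 6 of 8 epithelial markers were at least 2-fold higher at 10 weeks in WT and none in Mkx-KO, while 8 of 11 neutrophil markers were in Mkx-KO and none in WT. Olfactory and nasal markers were at least 2-fold higher at 10 weeks in 6 of 6 measured in Mkx-KO, with a median of 7.75, and in 5 of 8 in WT. Skeletal muscle markers were in 6 of 6 in Mkx-KO, with a median of 2.50, and in 2 of 6 in WT, and adipocyte markers in 4 of 5 in Mkx-KO and 1 of 5 in WT. Their part in the age differences was not tested.

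Saa3 and Cxcl5 were measured on every array and spanned at least 4-fold, which allowed a search for genes of like pattern among 14509 others, by the root mean square distance between levels centred on each gene's own mean. The search took only genes well above background on every array. The distance also grows with the size of differences, so Saa3, with a span of 6.17, lay far from genes of smaller span. The nearest to Saa3 were Cox6b2 at 1.54 log2 units, with a span of 3.36, Rln1 at 1.64 and Timm21 at 1.68. Whether other genes share the shape of its pattern was not tested. Cox6b2 differed by 2.69 and Rln1 by 1.82 at 4 weeks, less than Saa3 did. Spots around Timm21 had a median difference of 0.16 at 4 weeks. Cxcl5 had near neighbours, Slco1a5 at 0.02, Speer4c at 0.05 and Eppk1 at 0.07, over the same 4 arrays. These are the closest of 14509 genes on only 4 values, and such a search can return near matches between unrelated genes. The distances are smaller than the technical error of a Cxcl5 difference, 0.20. Speer4c was dim, at a level of -4.32 in WT at 4 weeks. A link between these genes and Cxcl5 was not tested.

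The other acute phase genes did not follow Saa3. Of 21 listed genes, 13 were measured at 10 weeks with a median of 0.31 and none at least 2-fold apart, and 11 at 4 weeks with a median of -0.23, 2 at least 2-fold lower and none higher. Those lower were Orm1, the orosomucoid gene, at -1.60, and Lcn2, the gene of the iron-binding lipocalin 2, at -1.29 (second probe -1.32). Hp, the haptoglobin gene, differed by -0.79. At 10 weeks Hp and Lcn2 differed by 0.77 and 0.76, and Steap4, a metalloreductase gene, by 0.87. Neutrophil markers moved with Hp and Lcn2 at both ages and with Orm1 at 4 weeks. Of these markers 11 of 11 were positive at 10 weeks and 0 of 11 at 4 weeks, with medians of 0.74 and -1.12. Their summed signal, in units of the 75th percentile, was 1189 in Mkx-KO and 866 in WT at 10 weeks, and 367 in Mkx-KO and 710 in WT at 4 weeks. Their part in these acute phase values was not tested; in whole tissue, fewer cells of a type and less RNA per cell cannot be told apart. Saa3 and Il1b ran against the neutrophil markers at 4 weeks.

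Apart from Epcam at 4 weeks, epithelial markers moved in the direction of Saa3 at both ages and of Cxcl5 at 10 weeks. At 10 weeks 0 of 8 were positive, with a median of -0.89, and at 4 weeks 7 of 8, with a median of 0.74. Their summed signal was 450 in Mkx-KO and 833 in WT at 10 weeks, and 579 in Mkx-KO and 324 in WT at 4 weeks. Krt13, a keratin gene of the oral lining, read 3776 in Mkx-KO and 9273 in WT at 10 weeks, and 7730 in Mkx-KO and 3677 in WT at 4 weeks. The marker differences at 4 weeks ran from -0.45, for Epcam, to 0.99. Epcam read 41.8 in Mkx-KO and 53.2 in WT at 4 weeks, and Cdh1 304 in Mkx-KO and 262 in WT. The keratin genes Krt14, Krt6a and Krt5 were the brightest markers on every array and made up most of the sums. The part of epithelium in the values of Saa3, Cxcl5 and the genes below was not tested. Monocyte and macrophage markers summed to 140 in Mkx-KO and 143 in WT at 10 weeks and to 141 in Mkx-KO and 141 in WT at 4 weeks. Single markers differed more than these sums: at 10 weeks 8 of 10 were positive, with a median of 0.18 and a range of -0.39 to 0.81. The brightest at 10 weeks, Ly6c2, read 15780 in Mkx-KO and 24705 in WT. On the level scale its difference was -0.39, the low end of this range. At 4 weeks 2 of 10 were positive, with a median of -0.10. Olfactory and nasal markers were all at least 2-fold lower in Mkx-KO at 4 weeks, 6 of 6 measured with a median of -6.92, as were 6 of 6 skeletal muscle markers, with a median of -1.40, and their part in the values of 4 weeks was not tested.

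**Figure D4:**
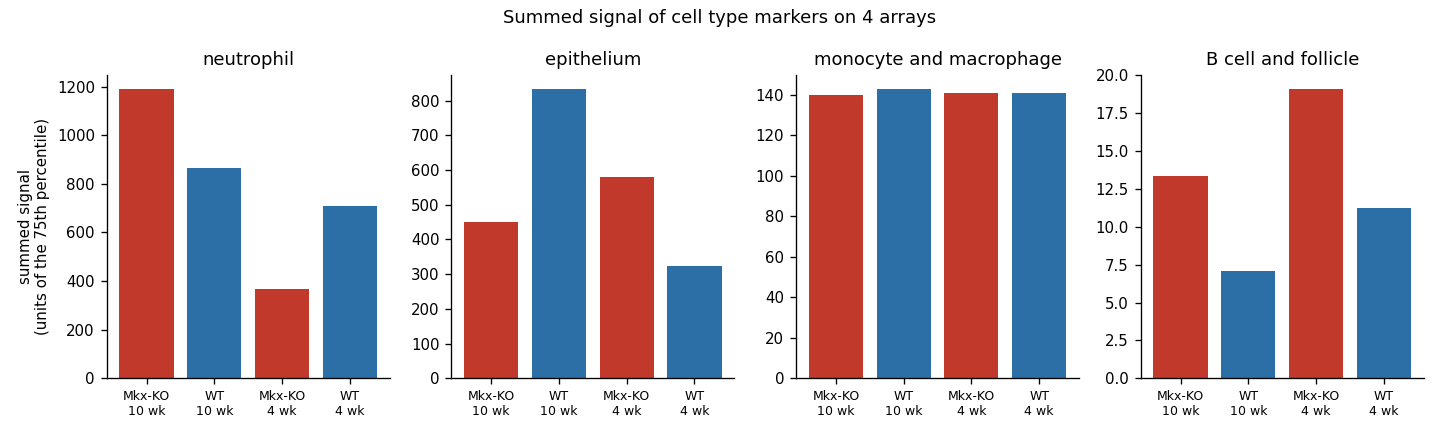
Summed signal of 4 marker lists (y axis, linear, in units of the 75th percentile of the array) on the 4 arrays (x axis), Mkx-KO in red and WT in blue. Neutrophil markers are lowest in Mkx-KO of 4 weeks (367), epithelial markers highest in WT of 10 weeks (833), and B cell markers higher in Mkx-KO than in WT at both ages.

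Among all measured genes at 10 weeks, 51.5% were positive, 1.04% at least 2-fold higher and 1.37% at least 2-fold lower. At 4 weeks these shares were 58.8%, 0.472% and 3.31%. The counts of every list stand beside these shares. In the interleukin 1 family, 12 of 17 listed genes were measured at 10 weeks, with 1 positive, 2 at least 2-fold lower and a median of -0.35. The 2 were Il1rn, which encodes the antagonist of the interleukin 1 receptor, and Casp1, the protease gene that matures interleukin 1 beta. Il1rn read 919 in Mkx-KO and 2447 in WT at 10 weeks, and 1351 in Mkx-KO and 920 in WT at 4 weeks. Its differences were -1.16 and 0.45, and its second probe gave -1.35 and 0.26, the same signs as Saa3. Casp1 stood at 49.9% of WT at 10 weeks and differed by 0.18 at 4 weeks, and Il1a, the gene of interleukin 1 alpha, by -0.93 at 10 weeks.

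At 4 weeks 10 genes of this family were measured, 7 of them positive, with a median of 0.08. The signalling receptor gene Il1r1 differed by 0.52 and the decoy receptor gene Il1r2 by 0.73, both below 2-fold. Il18r1, a receptor gene for interleukin 18, was the only one at least 2-fold apart, at -2.96. The receptor gene of interleukin 33, Il1rl1, differed by -0.02, while its second probe gave 1.499, so its direction is not settled here.

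Genes of the interleukin 6 family showed none at least 2-fold apart at either age. Of 13 measured, 8 were positive at 10 weeks, with a median of 0.05, and 9 at 4 weeks, with a median of 0.18. The receptor gene Il6ra differed by 0.04 at 10 weeks and -0.04 at 4 weeks. Il6st, the gene of the shared signalling chain, differed by 0.22 and -0.21. Osm, the oncostatin M gene, differed by 0.61 and Socs3, a feedback inhibitor of STAT3 signalling, by 0.46 at 4 weeks. Clcf1, a cytokine gene of the same family, differed by 0.98 at 10 weeks.

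Among 20 other chemokine genes, 18 were measured at 10 weeks, with a median of -0.32 and 2 at least 2-fold lower. These were Ccl7 at -1.03 and Ccl12 at -1.01, monocyte chemokine genes that act on the receptor of CCL2, whose own gene differed by -1.31. The receptor gene Ccr2 differed by -0.10 at 10 weeks and -0.45 at 4 weeks. At 4 weeks 17 were measured with a median of -0.12; Ccl3 was higher at 1.05 and Ccl17 lower at -1.06. Cxcl2, a neutrophil chemokine gene like Cxcl5, differed by -0.75 at 10 weeks and 0.88 at 4 weeks. Both were negative at 10 weeks, while the difference of 0.22 of Cxcl5 at 4 weeks was under 2 technical errors of 0.20. Their receptor gene Cxcr2 differed by 0.46 and -0.45, opposite in sign to Cxcl2 at both ages and to Cxcl5 at 10 weeks. Cxcr2 is itself in the neutrophil marker list.

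Of 15 measured receptor genes none was at least 2-fold apart at either age; the median was 0.46 at 10 weeks and -0.01 at 4 weeks. Fpr2, a formyl peptide receptor gene whose product also binds serum amyloid A, differed by 0.50 and -0.80 (second probe 0.72 and -0.77), and at 4 weeks it was lower where Saa3 was higher. Cxcr5, the receptor gene of CXCL13 on B cells, differed by 0.68 and 0.74. B cell markers, with Cxcr5 among them, were positive in 8 of 8 at both ages, summing to 13.4 in Mkx-KO and 7.11 in WT at 10 weeks and to 19.1 in Mkx-KO and 11.2 in WT at 4 weeks. Cxcl13 differed by -0.04 at 10 weeks.

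In the prostanoid list none of 17 measured genes was at least 2-fold apart at 10 weeks, and 1 of 16 was at 4 weeks: Ptgds, a prostaglandin D2 synthase gene, at -2.01. The medians were -0.01 and -0.21. Ptges, whose product makes prostaglandin E2 from the product of cyclooxygenase, differed by -0.01 and -0.04, while its other probes gave -0.55 to -0.43 and 0.48 to 0.51. The receptor gene Ptger4 differed by -0.25 and -0.79, and its second probe by -0.22 and -0.97.

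All 26 genes of NF-kappaB signalling and its targets were measured at both ages, and none was at least 2-fold apart. At 10 weeks 14 were positive, with a median of 0.03, and at 4 weeks 20, with a median of 0.13, where 58.8% of all genes were positive. Bcl3, the gene of a nuclear cofactor of NF-kappaB, differed by 0.82 at 4 weeks, Rel by 0.58 and Nfkb2 by 0.55. At 10 weeks Zc3h12a, the gene of a nuclease that degrades cytokine messages such as Il6, differed by -0.67, and Sele, the endothelial adhesion gene E-selectin, by -0.58.

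**Figure D5:**
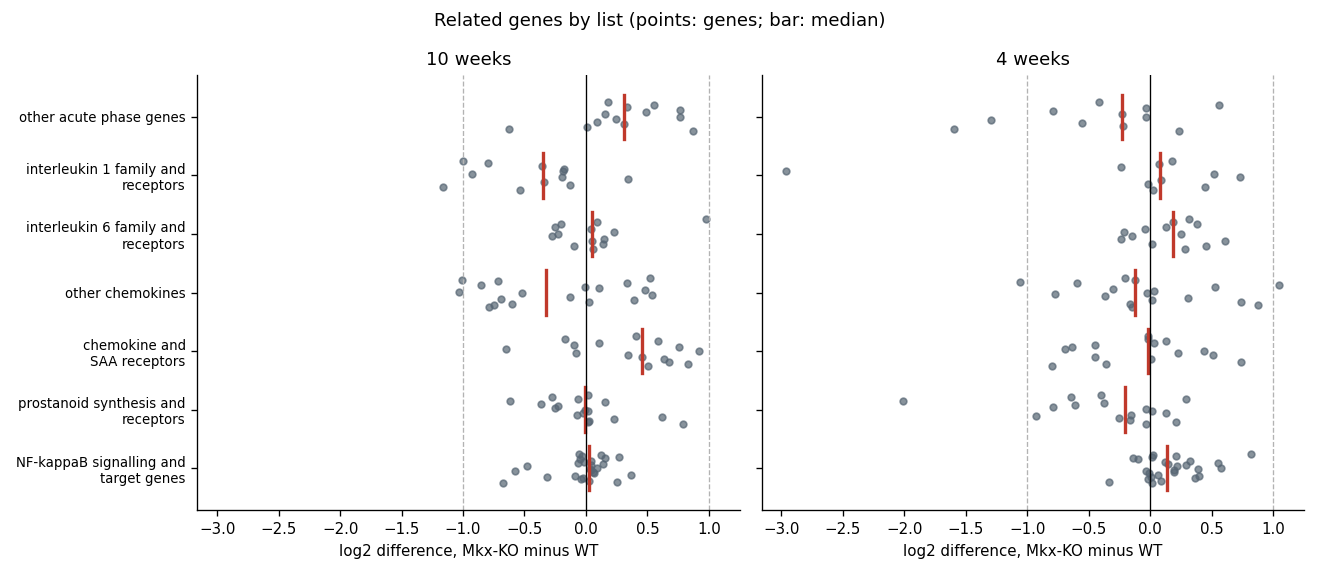
Log2 difference of Mkx-KO minus WT (x axis) at 10 weeks (left) and 4 weeks (right) for the measured genes of 7 lists of related genes (y axis); each point is a gene, the red bar is the median and dashed lines mark 2-fold. Points at 4 weeks beyond 2-fold include Il18r1 at -2.96, Ptgds at -2.01 and Orm1 at -1.60, and none of the lists has a gene as high as Saa3.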

How the data were processed

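Values were spot intensity from 1-colour Agilent arrays; per the file headers, the authors read them with Agilent Feature Extraction 11.5.1.1, which subtracts background and detrends within each array, and the design is annotated on mm9. The same deposited files hold median pixel intensity, signal errors and flags (other values of 0 or 1). The deposited series table holds intensity equal to the processed signal times 1 factor per array (2.08 and 1.81 for Mkx-KO and WT at 10 weeks, 1.54 and 1.64 at 4 weeks), whose basis is not given in the sources used here.

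Accessions were matched to RefSeq genes, naming 32994 of 56605 probes (58.3%). Outlier spots (60 to 77 per array, none of these genes) were left out, spots of a probe were averaged, and each array's 75th percentile over non-control probes was subtracted on the log2 scale. A gene was measured where its probe was well above background on both arrays and called at 2-fold; otherwise a bound was given. With 1 array a group no test was run. The call step was tested on simulated data.

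Members and lists (7 of related genes, 12 of markers) were chosen with earlier results of these data known. Named genes are the members, direct receptors, antagonists and enzymes, and the 3 genes of each list farthest apart at each age. Alternatives were normexp (limma 3.58.1, R 4.3.3, offset 50, on the median spot signal), quantile normalization, another centring, the deposited scaling, the mean over probes, other filters and other fold thresholds. The spots around each member were examined after its values were seen. Computation used Python 3.11.15 with pandas 2.3.3.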

Additional observations from a re-analysis of the deposited data

Results flagged for a closer look

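Some genes differed in opposite directions at the 2 ages, by more than 2 technical errors at each age, with 1 array a group. The difference between the ages was not tested. Saa3 differed by -1.60 at 10 weeks and 6.17 at 4 weeks, 10 minus 4 weeks -7.77. Il1rn differed by -1.16 and 0.45 (-1.61) and Cxcl2 by -0.75 and 0.88 (-1.62), in the same directions as Saa3. The others went the opposite way. Lcn2 differed by 0.76 and -1.29 (2.06), Hp by 0.77 and -0.79 (1.55) and Ptgir by 0.62 and -0.93 (1.55). Ccr3 differed by 0.75 and -0.64 (1.39), Fpr2 by 0.50 and -0.80 (1.30) and Cxcr2 by 0.46 and -0.45 (0.91). The pattern is not particular to these genes: among neutrophil markers Camp differed by 0.74 and -1.63 and Mpo by 0.86 and -1.12. Mmp9 and Elane of that list were within their technical error at 4 weeks.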

How the results depend on the processing

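No paired analysis was possible because each group has 1 array and the labels carry no replicate numbers. Differences were recomputed where both spots were well above background, which leaves out Il6 in every comparison and Cxcl13 in all but that of genotype at 10 weeks. Of these 140 values for 9 genes, 111 moved by less than their technical error, 29 moved by more, and none that was at least 2-fold changed sign. Saa3 stayed at least 2-fold apart in all 4 comparisons under normexp, quantile normalization, the other centring and the deposited scaling. Its age difference in WT was 1.89 with normexp. At a 3-fold threshold 1 gene was apart at 10 weeks, 2 by age in Mkx-KO and 2 by age in WT; at 1.5-fold 4 were apart at 4 weeks. Normexp left 3 by age in WT, without Ccl2 and Ptgs2, and in Mkx-KO it ended the calls of Cxcl5 and Ptgs2. Over all genes, those apart by genotype at 10 weeks numbered 396, or 150 with normexp, 1468 at 1.5-fold and 86 at 3-fold. At 4 weeks they numbered 593, or 259, 1546 and 246 in the same order. By age they numbered 1580 in Mkx-KO, or 815, 4298 and 569, and 1423 in WT, or 705, 3753 and 491. Dim spots such as those of Il6, Saa2 and Cxcl13 at 4 weeks lie close to background, and no depth of scanning replaces further mice: every value rests on 1 array.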
